A study of Mus musculus with 6 samples.

Results

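The genes described here are 50 genes of DNA replication. They license origins in G1, start and carry the replication fork, supply nucleotides or switch S phase on. They were chosen by name, and their Ensembl identifiers were taken from the GENCODE M21 annotation of mouse genome build GRCm38. All 50 were among the 51912 rows of the gene count table, all 50 passed the filter on low counts, and they are 50 of the 19017 genes tested. Their deposited counts ran from 65 to 24379 per library. The cells were primary osteoblasts, the bone-forming cells, taken from the calvaria (skull cap) of pups aged 1 d on the C57BL/6J background. RNA of 6 libraries was sequenced. All cells carried the Mark3 flox/flox alleles, in which Cre recombinase can cut out a part of the gene, and all were exposed to an adenovirus for 24 h. The 3 WT libraries came from cells given the GFP virus, labelled wild-type, and the 3 Mark3-KO libraries from cells given the Cre virus, labelled Mark3-/-. Loss of MARK3, a serine/threonine kinase, therefore changed together with the virus that was given, and uninfected cells were not analysed here. The labels name no promoter for the viral genes. They also do not state that replicate libraries stem from independent cultures or litters, so a p-value here reflects library-to-library spread alone, and that spread may be technical.

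Before a cell copies its genome, the origin recognition complex binds DNA and, with CDC6 and CDT1, loads the MCM2-7 helicase as an inactive ring. Geminin blocks CDT1 once S phase has begun. The CDC7-DBF4 kinase, CDC45 and the GINS complex then turn the ring into a moving helicase, and polymerases alpha, delta and epsilon copy the strands with the help of the PCNA clamp, its RFC loader and the RPA single-strand binding protein. Most of these genes are transcribed by E2F factors as cells leave quiescence, so their RNAs are widely used as a readout of proliferating cells, such as the osteoblast progenitors in calvarial cultures.

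Library totals ran from 56925883 to 71445243 counts. Mark3 itself was counted at 113, 118 and 118 CPM in WT against 47.6, 52.4 and 44.1 CPM in Mark3-KO in libraries 1, 2 and 3 of each group, an order kept throughout. CPM are counts per 1000000 of the library size, scaled by TMM (trimmed mean of M values). It was lower in every Mark3-KO library (log2 change -1.27 with SE 0.10, edgeR adjusted p = 0.0153), and the GC-corrected log2 change, from the correction described with the replication genes, was -1.60 (edgeR adjusted p = 0.00422). The call was lost without WT 2, Mark3-KO 2 or Mark3-KO 3 (edgeR adjusted p = 0.128, 0.0798 and 0.0681), and without both WT 1 and Mark3-KO 3 (0.125), with log2 changes of -1.27, -1.35, -1.22 and -1.24. The libraries also differed along a gradient tied to the base composition of the RNAs. For the genes richest in G and C (exon GC content 56.8% to 75.5%), each library's median log2 deviation from the average library came to 1.12, 0.69 and 0.11 for WT against -0.19, -0.68 and -0.98 for Mark3-KO. This gradient ran in the same order as the first principal component, which held 65.5% of the variance, and WT 3 and Mark3-KO 1 stood next to each other on it. Of the osteoblast markers 7 of 9 exceeded 1 CPM on average, with a summed level of 18679 to 39077 CPM in WT and 13177 to 14971 CPM in Mark3-KO. Col1a1 and Col1a2, the type I collagen genes, made up most of that sum. Spp1 (osteopontin) was instead higher in Mark3-KO, at 1423 to 1526 CPM against 1091 to 1272 CPM in WT, and the groups overlapped for the osteoblast transcription factors Runx2 and Sp7. Bglap and Bglap2, the osteocalcin genes, were the ones under 1 CPM. Of other cell types, chondrocyte markers (4 of 5 over 1 CPM) summed to 668 to 1731 CPM in WT and 351 to 583 CPM in Mark3-KO, and pericyte and smooth muscle markers (4 of 5) to 141 to 260.2 and 95.9 to 126 CPM. Col2a1 made up most of the chondrocyte sum, and the groups overlapped for Sox9 and Acan. Cspg4 and Cnn1 made up most of the pericyte and smooth muscle sum. Rgs5 was instead higher in Mark3-KO, at 10.7 to 13.1 CPM against 6.62 to 8.54 CPM in WT. Macrophage and osteoclast markers (6 of 6) summed to 202 to 229 CPM in WT and 209 to 221 CPM in Mark3-KO. Ctsk made up most of that sum, at 168 to 200 and 180 to 189 CPM, and its groups overlapped, as did those of Acp5. Ptprc and Adgre1 were higher in every Mark3-KO library than in any WT library, and Csf1r and Cd68 were lower in every one. Skeletal muscle markers (3 of 6) summed to 7.80 to 13.7 CPM in WT and 2.77 to 5.73 CPM in Mark3-KO. Endothelial markers (3 of 5) summed to at most 4.59 CPM, adipocyte markers (2 of 5) to at most 8.62 CPM and epithelial markers (0 of 5) to at most 0.477 CPM in any library, and no marker was at 0 in all 6 libraries. The part of these differences in the results on the replication genes was not tested.

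The replication genes did not shift together in Mark3-KO. Gins2, a subunit of the GINS complex, was the single gene of the 50 past the threshold of an adjusted p below 0.05 in edgeR's quasi-likelihood test, and it fell; none rose. Across all genes tested the same test called 41, which is 0.216% of them (0.168% lower and 0.0473% higher). The log2 fold changes of the 50 genes ran from -3.02 (Cdt1) to 0.82 (Ccne2), with a median of 0.11 against 0.02 for all tested genes; 32 lay above 0, 18 below, and 15 within 0.2 of 0. Summed over the 50 genes, the level was 2206, 2130.4 and 2216 CPM in WT and 2344, 2403 and 2307 CPM in Mark3-KO. As counted, the summed level was thus higher in each Mark3-KO library than in any WT library. Rrm1, the gene with the largest share of these sums, had means of 270 CPM (WT) and 341 CPM (Mark3-KO). With the GC correction described below, its log2 fold change was -0.04, and the median of the 50 genes was -0.01. The sums are not given with that correction, so they do not show a rise of the replication genes as a group.

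Many of the 50 genes lay just above the threshold. The adjusted p was between 0.05 and 0.055 for 18 of them (36%, against 24.5% of all tested genes) and below 0.1 for 28 (against 43.7%). The same 28 genes had an unadjusted p below 0.05, 17 higher and 11 lower, which is 56% of the 50 against 45.7% of all tested genes (20.8% higher, 24.8% lower). DESeq2's Wald test called 28 (17 higher, 11 lower), where it called 36.3% of all genes (14.5% higher, 21.8% lower). With a filter of 1 CPM in 3 libraries, edgeR called 24 (16 higher, 8 lower), where it called 37.4% of the genes it tested (16.1% higher, 21.3% lower). Limma-voom called 0, with 28 at an unadjusted p below 0.05. The libraries of both groups did not overlap for 33 of the 50 genes (22 higher and 11 lower in Mark3-KO, 66%), against 53.3% of all tested genes (25.8% higher, 27.5% lower). The count of calls thus differed with the tool and filter used on the same counts.

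**Figure D1:**
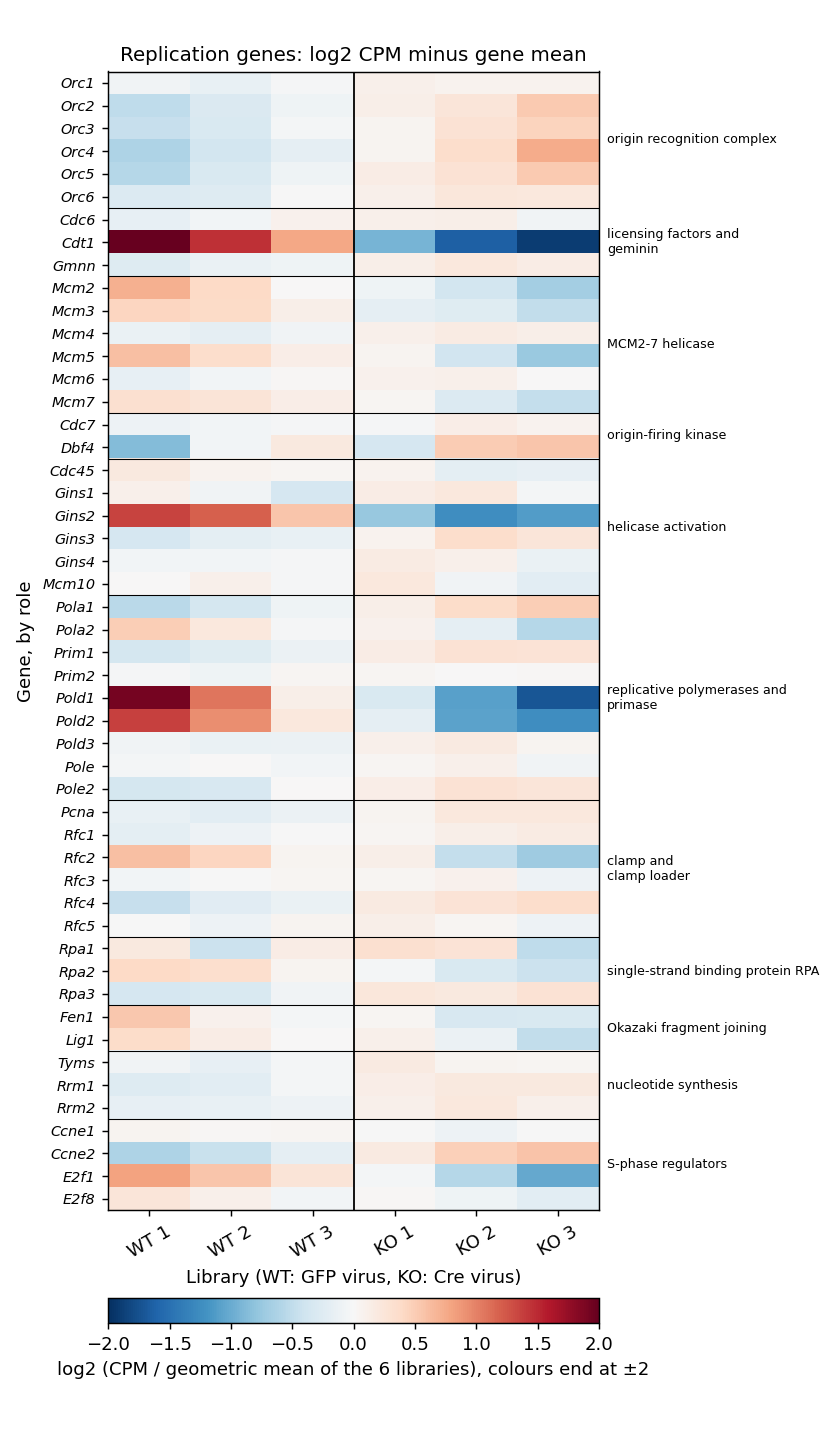
Log2 ratio of each of the 50 replication genes to its own mean over the 6 libraries (geometric mean of CPM; colour), with genes in rows grouped by role and the libraries in columns, 3 WT and 3 Mark3-KO. Gins2, Cdt1, Pold1 and Pold2 are low in all 3 Mark3-KO libraries, while all 6 genes of the origin recognition complex are higher there than in WT.

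Much of the spread among the 50 genes ran with the share of G and C in their exons. Across the 50 genes the log2 fold change and the exon GC content had Pearson's r of -0.81 and Spearman's rho of -0.88, and across the 18965 tested genes with a GC value r was -0.73 and rho -0.79. These points are genes of the same 6 libraries, not independent replicates, and they share the gradient described above. Of the 20 replication genes with a GC content above 48.6%, the median of all tested genes, 15 were lower in Mark3-KO and 5 higher, and of the 30 at lower GC content 27 were higher and 3 lower. The level of 18 of the 50 (36%) went up or down without a break over the 6 libraries ordered along the first principal component, against 27.8% of all tested genes. Cdt1, Mcm2, Mcm3, Mcm5, Mcm7, Pold1, Pold2, Rpa2 and E2f1 went down in that order and Orc2, Orc3, Orc4, Orc5, Pola1, Rfc1, Rfc4, Rrm1 and Ccne2 went up.

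When a smooth function of exon GC content was fitted in each library and entered in the edgeR model, the range of fold changes narrowed. The log2 fold changes then ran from -1.89 to 0.65 with a median of -0.01, 24 genes lay above 0 and 26 below, and 16 of the 50 had the opposite sign. Cdt1 and Gins2 were past the threshold in this fit, both lower, and no gene of the 50 was past it as higher; the fit called 0.394% of all tested genes (0.3% lower and 0.0947% higher). At an unadjusted p below 0.05 there were 9 higher and 11 lower, where 27.3% of all tested genes were (12.2% higher, 15.1% lower). Pearson's r with GC content was still -0.36 over the 50 genes after the correction and -0.02 over all tested genes. Because the GC gradient ran with the groups, GC content and loss of Mark3 cannot be told apart as the source of a difference from these libraries. Where values from both fits are given, the second is called GC-corrected.

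**Figure D2:**
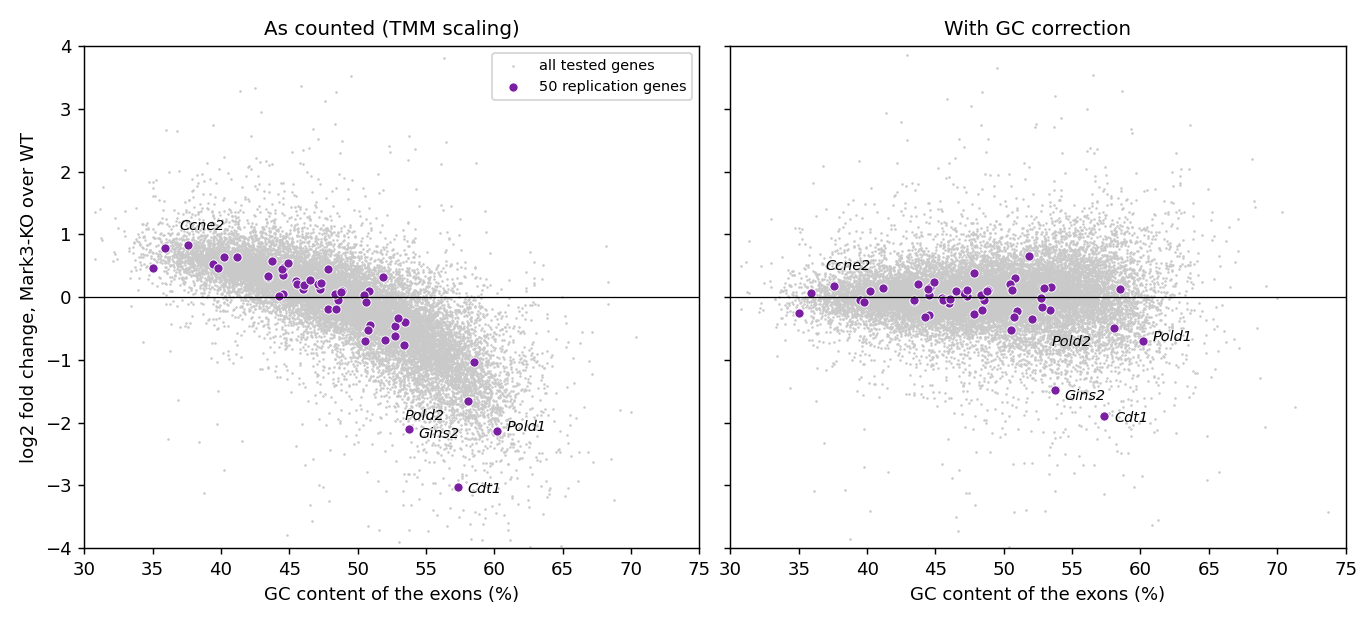
Log2 fold change (Mark3-KO against WT) of every tested gene (grey points) and of the 50 replication genes (coloured points) against the GC content of its exons in percent, as counted and with the GC correction. As counted, the replication genes follow the slope of the grey points, with Gins2 and Cdt1 below it, and with the correction these are the 2 lowest of the 50; genes beyond the axes are not drawn.

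The origin recognition complex marks the sites where replication can start, and its 6 genes all had higher values in Mark3-KO. None passed the test in either fit. All 6 were higher in every Mark3-KO library than in any WT library, as were 25.8% of all tested genes. At an unadjusted p below 0.05 there were 5 as counted, where 45.7% of all tested genes were, and 1 GC-corrected, where 27.3% were. Orc4 was measured at 33.01, 39.1 and 44.6 CPM in WT against 52.5, 64.4 and 83.9 CPM in Mark3-KO, a mean of 38.9 ± 5.82 CPM in WT against 66.95 ± 15.9 CPM in Mark3-KO (SD, n = 3 in each, log2 change 0.78 with SE 0.20, edgeR adjusted p = 0.0506). Orc3 followed the same order with 58.4, 64.9 and 77.9 CPM in WT against 83.3, 98.2 and 109 CPM in Mark3-KO (a log2 difference of 0.53, edgeR adjusted p = 0.0523). In both genes the level went up from WT 1 to Mark3-KO 3 in the order of the gradient, and both are poor in G and C (35.9% and 39.5%). Orc5 and Orc2 had log2 fold changes of 0.64 and 0.58 (adjusted p = 0.0506 and 0.0511 by edgeR), and 29.8% of the exon bases of Orc2 are shared with the neighbouring gene Nif3l1. Orc6, the subunit with the highest level per exon length over all 6 libraries (12.5 CPM per kb in WT and 15.95 CPM per kb in Mark3-KO, where Orc2 was at 16.1), was at 28.7, 29.1 and 34.7 CPM in WT against 37.5, 40.6 and 40.1 CPM in Mark3-KO (a log2 difference of 0.35, edgeR adjusted p = 0.0667). Orc1, the subunit whose supply is tied to the cell cycle, had the smallest difference, 0.16 on the log2 scale. GC-corrected log2 fold changes of the 6 genes lay between -0.07 (Orc1) and 0.21 (Orc2), and Orc3 went to -0.04.

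Among the licensing factors, Cdt1 stood apart from Cdc6 and Gmnn. CDT1 brings the MCM ring to the origin, CDC6 is the ATPase that works beside it, and geminin, the product of Gmnn, is the inhibitor of CDT1. Cdt1 (chr8:122568015-122573554, plus strand, GRCm38) was counted 1069, 597 and 453 times in WT and 153, 76 and 65 times in Mark3-KO, or 18.3, 10.8 and 6.75 CPM in WT against 2.08, 1.28 and 1.06 CPM in Mark3-KO. All 3 Mark3-KO libraries were far below all 3 WT libraries, and 12.3% of the WT mean was left (11.97 ± 5.87 CPM in WT against 1.47 ± 0.536 CPM in Mark3-KO, SD, n = 3 in each). The log2 fold change was -3.02 with SE 0.44 (adjusted p = 0.0506 by edgeR), just outside the threshold, and GC-corrected it fell by 1.89 on the log2 scale (adjusted p = 0.0155 by edgeR). GC-corrected levels were 9.49, 7.21 and 6.32 CPM in WT and 2.32, 1.96 and 1.91 CPM in Mark3-KO. Between WT 3 and Mark3-KO 1, the libraries of opposite groups that stand next to each other on the gradient, Cdt1 differed by -1.70 on the log2 scale and Gins2 by -1.31, while the other 48 genes differed by -0.53 (Dbf4) to 0.48 (Gins1). That sets 1 library against 1, and the share of all tested genes with differences of this size is not given. The exons of Cdt1 share no bases with another annotated gene. Its adjusted p passed the threshold under 9 of the 17 ways of fitting that were run, and the log2 fold change lay between -3.36 and -1.88 over all of them.

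Cdc6 was at 13.6, 14.7 and 16.2 CPM in WT against 16.4, 16.5 and 14.6 CPM in Mark3-KO (a log2 difference of 0.10, edgeR adjusted p = 0.578), with overlapping groups and a GC-corrected log2 fold change of 0.12. Gmnn, the gene of this group with the highest level per exon length, was at 10.03, 10.9 and 11.2 CPM in WT against 12.96, 13.8 and 13.3 CPM in Mark3-KO, higher in each Mark3-KO library (log2 change 0.32 with SE 0.12, edgeR adjusted p = 0.0839). GC-corrected, its log2 fold change was 0.65, the highest of the 50 genes (adjusted p = 0.0877 by edgeR). Per exon length the ratio of Cdt1 to Gmnn was 0.533 ± 0.292 in WT and 0.0517 ± 0.0202 in Mark3-KO (SD, n = 3 in each), and GC-corrected 0.385 ± 0.133 and 0.0652 ± 0.0155. The RNAs of the licensing factor and of its inhibitor thus stood further apart in Mark3-KO on both scales.

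The 6 genes of the MCM2-7 helicase encode subunits that work in equal numbers, and their levels divided into those with lower and those with higher values. Mcm2, Mcm3, Mcm5 and Mcm7 were lower in every Mark3-KO library than in any WT library, Mcm4 was higher in every one, and Mcm6 overlapped. Of all tested genes, 27.5% were lower without overlap and 25.8% higher. None of the 6 passed the test by edgeR in either fit. At an unadjusted p below 0.05 there were 5 as counted, against 45.7% of all tested genes, and 2 GC-corrected, against 27.3%. Mcm3, with the smallest p, was at 70.96, 68.4 and 57.03 CPM in WT against 46.2, 44.2 and 37.2 CPM in Mark3-KO, a mean of 65.5 ± 7.41 CPM in WT against 42.5 ± 4.69 CPM in Mark3-KO (SD, n = 3 in each, log2 change -0.62 with SE 0.13, edgeR adjusted p = 0.0506). Mcm2 was at 77.4, 61.97 and 47.6 CPM in WT against 44.5, 36.6 and 29.5 CPM in Mark3-KO (a log2 difference of -0.76, edgeR adjusted p = 0.0538). Mcm5 was at 77.2, 64.8 and 55.6 CPM in WT against 52.9, 39.2 and 30.4 CPM in Mark3-KO (a log2 difference of -0.69, edgeR adjusted p = 0.0636). In Mcm2 and Mcm5, WT 3 and Mark3-KO 1 lay closer together than the outer libraries of either group, and the exon GC content of Mcm3, Mcm2 and Mcm5 was 52.8%, 53.4% and 52.04%. Mcm7 had a log2 fold change of -0.46, which was -0.02 GC-corrected.

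Mcm6, the subunit with the highest mean level per exon length over all 6 libraries, was at 116, 124 and 132 CPM in WT against 138, 139.5 and 130.2 CPM in Mark3-KO (log2 change 0.13 with SE 0.09, edgeR adjusted p = 0.283). Mcm4 was at 89.3, 86.5 and 93.8 CPM in WT against 105, 109.7 and 106 CPM in Mark3-KO (a log2 difference of 0.25, edgeR adjusted p = 0.0632). These are the MCM genes with the least G and C (47.3% and 45.5%). Per exon length, the highest MCM gene stood 2.24, 2.99 and 4.13 times above the lowest in WT and 4.64, 5.80 and 6.98 times in Mark3-KO. Mcm2 was the lowest in all 6 libraries, at 8.96 CPM per kb in WT and 5.30 CPM per kb in Mark3-KO against 26.6 CPM per kb in WT and 29.2 CPM per kb in Mark3-KO for Mcm6. Mcm4, at 25.05 CPM per kb in WT and 29.8 CPM per kb in Mark3-KO, was the highest in WT 1, Mark3-KO 2 and Mark3-KO 3. Their summed level was 513, 484 and 458 CPM in WT and 455, 424 and 381 CPM in Mark3-KO. GC-corrected log2 fold changes lay between -0.35 (Mcm5) and 0.02 (Mcm6), and the ratio of Mcm2 to Mcm6 per exon length, 0.341 ± 0.103 in WT and 0.181 ± 0.0321 in Mark3-KO as counted, was 0.265 ± 0.0385 and 0.226 ± 0.00534 GC-corrected.

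**Figure D3:**
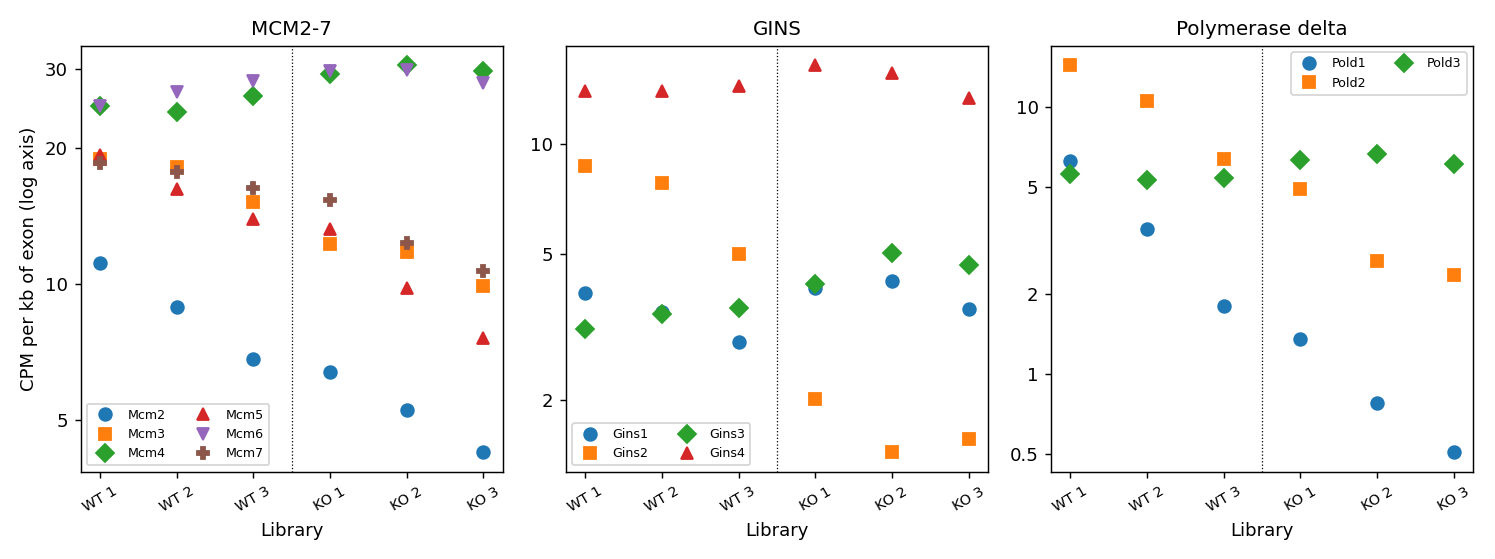
Level per exon length (CPM per kb of exon, log axis) of the subunit genes of the MCM2-7 helicase, GINS and polymerase delta in each library, with 1 symbol per gene and the WT and Mark3-KO libraries to the left and right of the dotted line. As counted, without the GC correction, the subunit genes lie further apart in the Mark3-KO libraries. For polymerase delta the ratio of the highest to the lowest subunit is 2.56 in WT 1 and 12.0 in Mark3-KO 3. These 2 libraries are the ends of the GC gradient. In WT 3 and Mark3-KO 1, which stand next to each other on it, the ratio is 3.56 and 4.69.

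CDC7 and its activator DBF4 form the kinase that fires loaded origins. Neither gene passed the test: Cdc7 had a log2 fold change of 0.13, and Dbf4 was at 29.5, 51.9 and 61.3 CPM in WT against 42.6, 76.2 and 79.03 CPM in Mark3-KO (log2 change 0.47 with SE 0.33, edgeR adjusted p = 0.302). Dbf4 was lowest in library 1 of each group, its groups overlapped, and the GC-corrected log2 fold change was -0.08.

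Gins2 encodes a subunit of GINS, which joins CDC45 and the MCM ring to make the active helicase, and it had the smallest p of the 50 genes. It was counted 2076, 1765 and 1379 times in WT and 609, 352 and 394 times in Mark3-KO, or 35.6, 32.05 and 20.6 CPM in WT against 8.26, 5.91 and 6.41 CPM in Mark3-KO. Every Mark3-KO library was below every WT library, with 23.3% of the WT mean left (29.4 ± 7.86 CPM in WT against 6.86 ± 1.24 CPM in Mark3-KO, SD, n = 3 in each, log2 change -2.10 with SE 0.25, edgeR adjusted p = 0.0459). GC-corrected, it fell by 1.48 on the log2 scale (adjusted p = 0.0126 by edgeR), with 25.2, 25.6 and 19.5 CPM in WT and 8.59, 7.50 and 9.05 CPM in Mark3-KO. The call was lost when WT 1, WT 2, Mark3-KO 2 or Mark3-KO 3 was left out (adjusted p = 0.118, 0.152, 0.154 and 0.148 by edgeR), with limma-voom (adjusted p = 0.0553), and with both WT 1 and Mark3-KO 3 left out (log2 fold change -1.89, adjusted p = 0.290 by edgeR).

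Gins2 (chr8:120578633-120589304, minus strand, GRCm38) overlaps Gse1 and shares 2758 of its exon bases, 67.3%, with that gene on the opposite strand, which leaves 1339 bases of its own. The library kit named in the labels does not keep the strand, so reads from the shared stretch cannot be given to either gene. Gse1, which encodes a coiled-coil protein, was at 29.3, 21.3 and 10.3 CPM in WT against 6.51, 4.72 and 8.09 CPM in Mark3-KO (log2 change -1.66 with SE 0.40, edgeR adjusted p = 0.0506), and its GC-corrected log2 fold change was -0.06 (adjusted p = 0.920 by edgeR). Added together, Gins2 and Gse1 were at 64.9, 53.3 and 30.9 CPM in WT and 14.8, 10.6 and 14.5 CPM in Mark3-KO. How the deposited counts divided the shared stretch was not tested.

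None of the other GINS genes passed the test, in either fit. Gins1 was at 5.95, 5.27 and 4.38 CPM in WT against 6.13, 6.41 and 5.38 CPM in Mark3-KO (a log2 difference of 0.20, edgeR adjusted p = 0.384), and its groups overlapped. Gins3 was at 8.45, 9.31 and 9.66 CPM in WT against 11.2, 13.6 and 12.7 CPM in Mark3-KO, higher in each Mark3-KO library (a log2 difference of 0.45, edgeR adjusted p = 0.0554). Gins4, the GINS gene with the highest level per exon length (14.1 CPM per kb in WT and 15.1 CPM per kb in Mark3-KO), was at 18.8, 18.8 and 19.4 CPM in WT against 22.1, 21.1 and 17.96 CPM in Mark3-KO (log2 change 0.10 with SE 0.12, edgeR adjusted p = 0.556). Per exon length, Gins2 stood at 2.07 ± 0.288 times Gins1 in WT and 0.427 ± 0.0797 times in Mark3-KO (SD, n = 3 in each), and GC-corrected at 1.60 ± 0.136 and 0.549 ± 0.104 times. Taken over all its exon bases, Gins2 was thus above Gins1 in every WT library and under it in every Mark3-KO library. That length includes the 2758 bases shared with Gse1. The place of Gins2 above or under Gins1 therefore depends on how reads from the shared stretch were counted, which was not tested. GC-corrected log2 fold changes were 0.07 for Gins1, 0.39 for Gins3 and 0.31 for Gins4 (adjusted p = 0.832, 0.0979 and 0.0990 by edgeR). Cdc45 (log2 fold change -0.19, GC-corrected -0.26) had overlapping groups and did not pass the test, and so did Mcm10, a helicase cofactor, at -0.04, whose sign turned to 0.07 with library size as the only scaling.

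Polymerase delta copies the lagging strand, and its subunit genes among the 50 also lay further apart in Mark3-KO. Pold1, the catalytic subunit (chr7:44532746-44548849, minus strand, GRCm38), was at 30.6, 17.01 and 8.76 CPM in WT against 6.58, 3.79 and 2.47 CPM in Mark3-KO, a mean of 18.8 ± 11.01 CPM in WT against 4.28 ± 2.10 CPM in Mark3-KO (SD, n = 3 in each, log2 change -2.13 with SE 0.54, edgeR adjusted p = 0.0506). Pold2, the accessory subunit with the smallest p of the polymerase genes (chr11:5872180-5878292, minus strand, GRCm38), was at 27.2, 20.05 and 12.2 CPM in WT against 9.35, 5.02 and 4.46 CPM in Mark3-KO, a mean of 19.8 ± 7.52 CPM in WT against 6.27 ± 2.68 CPM in Mark3-KO (SD, n = 3 in each, log2 change -1.66 with SE 0.39, edgeR adjusted p = 0.0506). Both went down library by library along the gradient, with WT 3 nearer to Mark3-KO 1 than to WT 1, and they are among the genes of the 50 richest in G and C (60.2% and 58.1%). GC-corrected log2 fold changes were -0.70 and -0.48 (adjusted p = 0.109 and 0.10 by edgeR). Pold3, a further accessory subunit, was at 25.8, 24.6 and 24.97 CPM in WT against 29.2, 30.7 and 28.1 CPM in Mark3-KO (a log2 difference of 0.22, edgeR adjusted p = 0.134), higher in every Mark3-KO library. The ratio of Pold1 to Pold3 per exon length was 0.703 ± 0.398 in WT and 0.138 ± 0.0675 in Mark3-KO, and 0.378 ± 0.0662 and 0.216 ± 0.0391 GC-corrected.

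Polymerase alpha and primase lay the RNA-DNA primers. Pola1, the catalytic subunit, was at 42.4, 48.5 and 58.1 CPM in WT against 66.7, 79.3 and 86.8 CPM in Mark3-KO (log2 change 0.64 with SE 0.16, edgeR adjusted p = 0.0506). Among the polymerase genes its mean level per exon length over all 6 libraries was the highest, but Pold2 was higher in WT (10.4 against 5.64 CPM per kb). Prim1, the primase that makes the RNA part, was at 19.7, 21.4 and 23.1 CPM in WT against 27.9, 30.8 and 30.3 CPM in Mark3-KO (a log2 difference of 0.47, edgeR adjusted p = 0.0506). For both genes the lowest Mark3-KO library was above the highest WT library, and GC-corrected log2 fold changes were 0.15 and 0.16. Their partners gave smaller or opposite values: Pola2 had a log2 fold change of -0.44 (GC-corrected -0.22) and Prim2 of 0.04 (GC-corrected -0.28), with overlapping groups. For polymerase epsilon, which copies the leading strand, the values were 0.06 for Pole and 0.44 for Pole2, and 0.04 and 0.12 GC-corrected. None of the 9 polymerase and primase genes passed the test in either fit. At an unadjusted p below 0.05 by edgeR there were 3 higher and 2 lower as counted, where 45.7% of all tested genes were. GC-corrected there were 2 higher and 3 lower, where 27.3% of all tested genes were.

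The sliding clamp PCNA holds the polymerases on DNA. Pcna was at 101, 97.1 and 105 CPM in WT against 117, 131 and 130.1 CPM in Mark3-KO (log2 change 0.32 with SE 0.09, edgeR adjusted p = 0.0515), higher in every Mark3-KO library, and per exon length it was at 42.1 CPM per kb in WT and 52.6 CPM per kb in Mark3-KO. The loader genes were mixed. Rfc4 was at 12.8, 15.03 and 16.1 CPM in WT against 19.97, 21.2 and 22.5 CPM in Mark3-KO (log2 change 0.54 with SE 0.13, edgeR adjusted p = 0.0506), and Rfc2, another subunit of the same loader, at 43.1, 38.02 and 29.3 CPM in WT against 30.7, 20.3 and 17.3 CPM in Mark3-KO (a log2 difference of -0.69, edgeR adjusted p = 0.0785). The groups overlapped for Rfc2 by the pair WT 3 and Mark3-KO 1. The large subunit gene Rfc1 had a log2 fold change of 0.21, Rfc3 of 0.02 and Rfc5 of 0.03; GC-corrected, the 6 clamp and loader genes lay between -0.52 (Rfc2) and 0.24 (Rfc4), and none passed the test.

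RPA coats the single strands that the helicase exposes. Its small subunit gene Rpa3 was at 10.1, 10.2 and 12.1 CPM in WT against 14.8, 14.6 and 15.5 CPM in Mark3-KO (log2 change 0.47 with SE 0.13, edgeR adjusted p = 0.0513) and its middle subunit gene Rpa2 at 23.1, 22.1 and 18.1 CPM in WT against 17.1, 14.2 and 12.9 CPM in Mark3-KO (a log2 difference of -0.52, edgeR adjusted p = 0.0576), each without overlap and in opposite directions. Rpa3 has the least G and C of the 50 genes (35.03%), and its GC-corrected log2 fold change was -0.25. Rpa1, the large subunit and the highest of the 3 per exon length, was at 143, 92.6 and 138 CPM in WT against 156, 151 and 87.96 CPM in Mark3-KO (log2 change 0.08 with SE 0.26, edgeR adjusted p = 0.824). WT 2 and Mark3-KO 3 were low for Rpa1, and its sign turned when Mark3-KO 1, Mark3-KO 2 or WT 2 was left out (-0.06, -0.04 and -0.10).

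FEN1 trims and LIG1 seals the pieces of the lagging strand. Fen1 was at 25.6, 18.5 and 17.01 CPM in WT against 18.1, 14.0 and 14.2 CPM in Mark3-KO (log2 change -0.40 with SE 0.20, edgeR adjusted p = 0.161) and Lig1 at 54.2, 46.6 and 42.3 CPM in WT against 45, 38.9 and 30.05 CPM in Mark3-KO (log2 change -0.33 with SE 0.18, edgeR adjusted p = 0.192). The groups overlapped for both, and both turned sign with the GC correction, to 0.17 and 0.14. For Fen1, 78.8% of the exon bases are shared with the antisense gene Gm10143, so its counts carry the same limit as those of Gins2.

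The 3 genes of nucleotide supply among the 50 were higher in each Mark3-KO library than in any WT library, as were 25.8% of all tested genes. Rrm1, the large subunit of ribonucleotide reductase, was at 253, 261 and 296 CPM in WT against 331, 346 and 346 CPM in Mark3-KO (log2 change 0.34 with SE 0.10, edgeR adjusted p = 0.0518). Rrm2, its S-phase subunit and, per exon length, the most abundant of the 50 RNAs (46.04 CPM per kb in WT and 55.8 CPM per kb in Mark3-KO), was at 125, 127 and 131 CPM in WT against 151, 163 and 151 CPM in Mark3-KO (log2 change 0.28 with SE 0.08, edgeR adjusted p = 0.0541). Tyms, the thymidylate synthase gene, had a log2 fold change of 0.19. None of the 3 passed the test, and GC-corrected they lay between -0.04 and 0.10. Together they were at 409, 417 and 459 CPM in WT and 518, 542 and 530.4 CPM in Mark3-KO. Outside the 50, the nucleotide enzyme gene Tk1 was lower in every Mark3-KO library, at 40.8, 34.6 and 24.04 CPM in WT against 20.3, 14.1 and 10.04 CPM. Its log2 fold change was -1.16 (GC-corrected -0.60), while those of Dck and Rrm2b were 0.41 and 0.53 (GC-corrected -0.05 and -0.03).

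The S-phase regulators gave the highest fold change of the 50 genes and another among the lowest. Ccne2, which encodes cyclin E2, an activator of CDK2 at S-phase entry, was at 15.98, 17.9 and 21.5 CPM in WT against 27.8, 33.9 and 36.4 CPM in Mark3-KO, a mean of 18.5 ± 2.79 CPM in WT against 32.7 ± 4.43 CPM in Mark3-KO (SD, n = 3 in each, log2 change 0.82 with SE 0.16, edgeR adjusted p = 0.0506). Ccne1, for cyclin E1, which is the higher of this group per exon length, was at 31.5, 30.7 and 30.9 CPM in WT against 30.1, 28.1 and 30.1 CPM in Mark3-KO (log2 change -0.08 with SE 0.10, edgeR adjusted p = 0.570), a difference whose sign turned with library size as the only scaling (0.04) and with the GC correction (0.12). The transcription factor E2f1 was at 26.9, 22.7 and 18.5 CPM in WT against 15.1, 10.4 and 7.58 CPM in Mark3-KO, a mean of 22.7 ± 4.16 CPM in WT against 11.03 ± 3.77 CPM in Mark3-KO (SD, n = 3 in each, log2 change -1.04 with SE 0.27, edgeR adjusted p = 0.0506). Ccne2 is poor and E2f1 rich in G and C (37.6% and 58.5%), and GC-corrected their log2 fold changes were 0.18 and 0.12, so the sign of E2f1 turned. E2f8, a repressor of the same family, had a log2 fold change of -0.19 (GC-corrected -0.21) with overlapping groups. In bulk RNA, a change in the share of cells in S phase and a change in RNA per cell cannot be told apart.

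**Figure D4:**
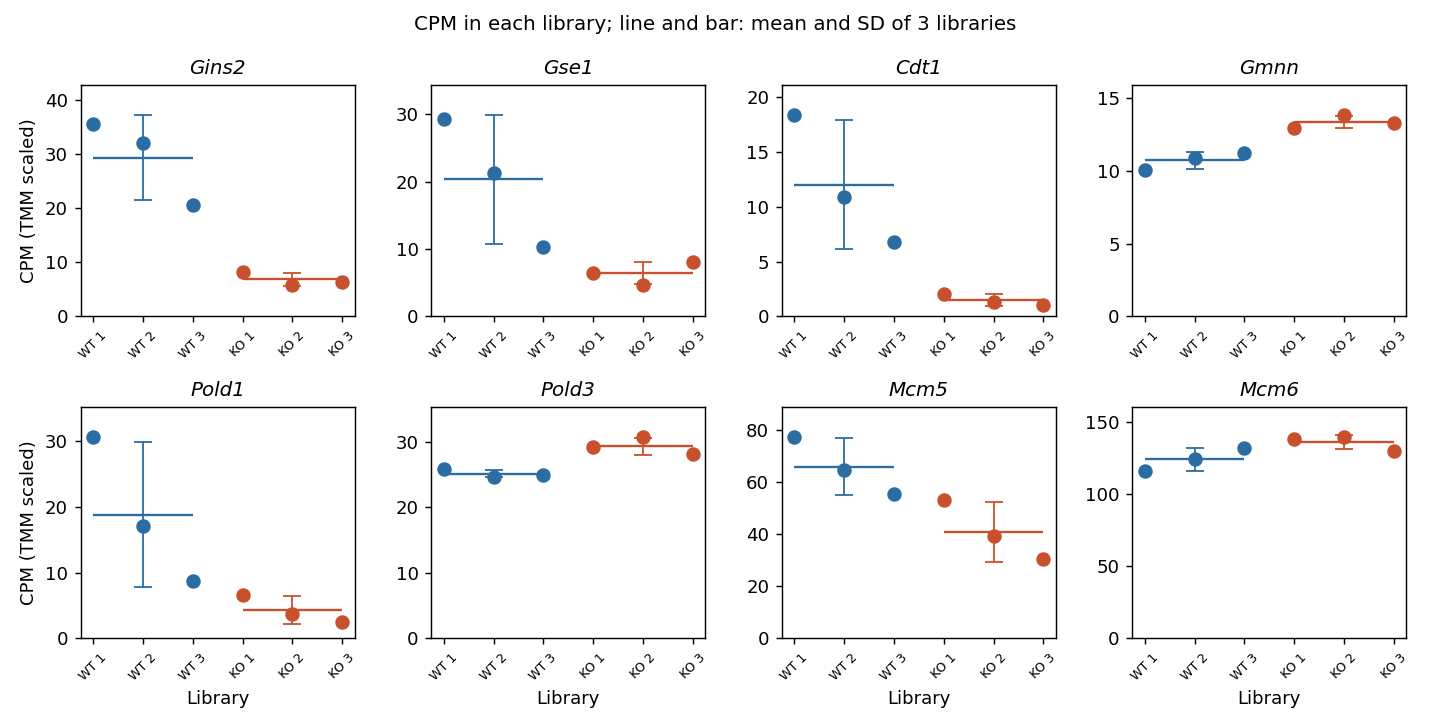
Level (CPM, TMM scaled) of Gins2, Gse1, Cdt1, Gmnn, Pold1, Pold3, Mcm5 and Mcm6 in each WT and Mark3-KO library (points), with the mean (line) and SD (bar) of the 3 libraries of each group. For Gins2 the 3 Mark3-KO libraries sit between 5.91 and 8.26 CPM, all under the lowest WT library, and for Gmnn all 3 sit above the highest WT library.

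Since E2F factors drive many of these genes, the promoters of 4 of them, with log2 fold changes of opposite sign, were set side by side. RefSeq promoters of 300 bases (250 before the start of the gene and 50 after) were at hand for 41 of the 50 genes, on build GRCm38.p6, and 4 E2F-type words were searched on both strands: TTTCCCGC, TTTGGCGC, TTTCGCGC and TTTGCCGC. At least 1 of them was found for 15 of the 41 genes (36.6%), against 704 of 27025 genes (2.61%) with a promoter in the same table. Gins2, the gene past the threshold, was not among the 41. Shown are the promoters of Cdt1 (chr8:122567765-122568064, plus strand) and Pold1 (chr7:44548766-44549065, minus strand), whose RNA was lower in all Mark3-KO libraries, and of Pold3 (chr7:100121453-100121752, minus strand) and Mcm6 (chr1:128359656-128359955, minus strand), whose RNA was not. Each is written 5′ to 3′ on the strand of the gene, and capitals mark the words found on either strand; in Mcm6 a pair of matches on opposite strands overlaps in 1 run of capitals.
Cdt1: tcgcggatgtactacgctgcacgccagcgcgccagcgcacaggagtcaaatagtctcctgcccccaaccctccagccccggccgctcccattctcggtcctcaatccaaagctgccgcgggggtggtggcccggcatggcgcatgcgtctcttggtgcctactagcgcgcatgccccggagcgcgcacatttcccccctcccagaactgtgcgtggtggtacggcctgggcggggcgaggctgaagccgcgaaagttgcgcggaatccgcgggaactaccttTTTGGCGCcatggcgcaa
Pold1: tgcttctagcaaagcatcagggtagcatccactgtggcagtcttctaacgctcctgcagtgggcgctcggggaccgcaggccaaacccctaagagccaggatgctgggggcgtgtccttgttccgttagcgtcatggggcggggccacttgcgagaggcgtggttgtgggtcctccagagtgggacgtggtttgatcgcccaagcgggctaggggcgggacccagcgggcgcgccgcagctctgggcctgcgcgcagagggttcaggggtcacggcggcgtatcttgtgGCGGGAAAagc
Pold3: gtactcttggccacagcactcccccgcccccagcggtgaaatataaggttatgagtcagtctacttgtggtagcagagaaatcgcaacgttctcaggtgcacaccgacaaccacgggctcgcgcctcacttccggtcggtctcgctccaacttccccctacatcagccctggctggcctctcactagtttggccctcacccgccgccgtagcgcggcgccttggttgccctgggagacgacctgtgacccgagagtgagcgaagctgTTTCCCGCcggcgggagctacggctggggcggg
Mcm6: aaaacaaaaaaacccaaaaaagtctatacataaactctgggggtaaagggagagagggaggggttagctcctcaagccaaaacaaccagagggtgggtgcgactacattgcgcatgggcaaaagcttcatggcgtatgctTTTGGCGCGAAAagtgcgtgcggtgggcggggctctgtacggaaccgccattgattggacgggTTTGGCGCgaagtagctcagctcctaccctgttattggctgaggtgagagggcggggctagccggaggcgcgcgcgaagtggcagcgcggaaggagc
All 4 promoters carry a match, and Cdt1 and Mcm6 share the word TTTGGCGC while Pold1 and Pold3 share TTTCCCGC on opposite strands. These 4 were picked by name and do not stand for the 41 genes, of which 26 had no match. Among those without a match were Mcm2, Pold2, Rpa2 and E2f1, which were lower in Mark3-KO as counted, and Orc2, Orc4 and Pcna, which were higher. With the GC correction the signs of E2f1 and Pcna turned (0.12 and -0.07). Of the 15 genes with a match, 6 had log2 fold changes below 0 and 9 above, with a median of 0.10, and the median of the 26 genes without a match was 0.16. GC-corrected, these medians were -0.019 and -0.034. The words are a description of these letters and not of binding.

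Genes that work beside the 50 were read from a list of 58: origin-firing and fork-protection factors, histone chaperones, the alternative clamp loader, RNA-removing nucleases, nucleotide enzymes, cell-cycle kinases with their inhibitors, and other E2F and RB family genes. All 58 were tested and 0 passed the test by edgeR in either fit. At an unadjusted p below 0.05 there were 25 higher and 13 lower as counted (65.5%, against 45.7% of all tested genes). GC-corrected there were 8 higher and 10 lower, where 27.3% of all tested genes were. DESeq2 called 33 (21 higher, 12 lower, 56.9%, against 36.3% of all genes) and limma-voom 0, with 39 at an unadjusted p below 0.05. The median log2 fold change was 0.20 as counted and 0.02 GC-corrected, and the groups did not overlap for 43 of the 58 (29 higher, 14 lower), against the 53.3% of all tested genes given above. Across the 58 genes the log2 fold change and GC content had r of -0.80 and rho of -0.91, so they lay along the same slope as the 50. The genes of the list with the smallest p that are described here all had an adjusted p of 0.0506 by edgeR. Top2a, the topoisomerase of dividing cells, was at 341, 379 and 442 CPM in WT against 517, 573 and 602 CPM in Mark3-KO (log2 change 0.54, GC-corrected 0.08), and Ccna2, for cyclin A2, at 92.5, 106 and 119 CPM in WT against 140.1, 158 and 156 CPM in Mark3-KO (log2 change 0.51, GC-corrected 0.31). Both are S-phase to mitosis genes, and both were higher in each Mark3-KO library. Hells, a chromatin remodeller, had a log2 fold change of 0.78 (GC-corrected 0.18), E2f4, a repressor E2F, of -1.01 (GC-corrected -0.19), and Rnaseh2c, a subunit of the nuclease that removes RNA from DNA, of -3.73 (GC-corrected -2.81), at 6.79, 3.61 and 0.626 CPM in WT against 0.339, 0.252 and 0.228 CPM in Mark3-KO. For Rnaseh2c, 24.8% of the exon bases are shared with Kat5.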

How the data were processed

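RNA from 3 WT and 3 Mark3-KO libraries was sequenced, and 1 table of read counts per Ensembl gene was used. The counts were deposited by the authors without normalization; GRCm38, DESeq2, StringTie, FastQC and HISAT2 2.0.5 are named, per the submitters' processing notes. The annotation, counting settings and their handling of shared exons are not given in the sources used here. Of 51912 identifiers, 51719 matched GENCODE M21, which gave symbols, exon lengths and exon GC content; the other 193 held 0.0331% to 0.0834% of a library's counts and stayed in the fit where they passed the filter.

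Counts were tested with edgeR 4.0.16 in R 4.3.3: TMM scaling, filterByExpr, quasi-likelihood F test, Benjamini-Hochberg adjustment over 19017 genes, threshold 0.05, group as the only term. SE is the log2 fold change divided by the square root of F. The GC correction fitted a natural spline (6 degrees of freedom) of each library's log2 ratio on exon GC content and entered it as an offset. CPM use TMM-scaled library sizes, and CPM per kb divides by exon length. Alternatives were other scalings and filters, DESeq2 1.42.0, limma-voom (limma 3.58.1), the replicate block, and libraries left out. The pipeline was tested on simulated data. Genes given in full are those past the threshold, the smallest p and highest level per length in each role, the 6 that moved most with the GC correction among those whose sign or call it changed, Mark3, and the 6 smallest p among the 58 linked genes, of which 1 is not reported here; the others were chosen after their values were seen, from members that may all be named. The members and lists were chosen with earlier results of these data known.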

Additional observations from a re-analysis of the deposited data

How the results depend on the processing

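The count of all genes past the threshold was 41 by edgeR and moved to 4510 with library size alone as the scaling, 6894 with DESeq2, 27 with limma-voom, 5266 with the 1 CPM filter, 75 with the GC correction, and 8317 at an adjusted p of 0.1. The count of the 50 replication genes, 1 as reported, moved to 20 (14 higher, 6 lower), 28, 0 (28 at an unadjusted p below 0.05), 24, 2 and 28 in the same order, and to 2 without a filter. Without WT 1 and Mark3-KO 3 together, 0 genes and 0 of the 50 passed by edgeR (3258 and 12 at an unadjusted p below 0.05). Leaving out each library in turn gave 0 to 6460 genes, 0 to 21 of the 50, a median of 0.075 to 0.16, and a Mark3 log2 fold change of -1.35 to -1.22, with adjusted p of 0.0196 to 0.128; without WT 1 and Mark3-KO 3 it was -1.24 (adjusted p = 0.125 by edgeR). No replication gene was called without WT 1, WT 2, Mark3-KO 2 or Mark3-KO 3, while 20 were without WT 3 and 21 without Mark3-KO 1. The median log2 fold change of the 50 genes, 0.11, moved to 0.23 with library size alone, a scaling that shifts the median of all tested genes by 0.11, and to -0.014 with the GC correction, alone or with the block.

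Libraries of both groups carry the same replicate numbers, but a number marks no stated shared origin: the correlation of same-numbered libraries' deviations was 0.33, -0.03 and 0.29, and WT 2 correlated best with Mark3-KO 1. With the replicate block 8487 genes and 33 of the 50 (19 higher, 14 lower) passed, and with block and GC correction 1686 and 5 (Cdt1, Gins2, Pold1 and Rfc2 lower, Gmnn higher).

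The sign of 16 log2 fold changes turned with the GC correction, the value being the same with the block added unless given second: Orc1 (-0.066), Orc3 (-0.042), Mcm4 (-0.0089, -0.0085), Cdc7 (-0.093, -0.094), Dbf4 (-0.084, -0.077), Prim2 (-0.28), Pcna (-0.069, -0.066), Rfc1 (-0.046), Rfc3 (-0.32), Rpa3 (-0.25, -0.26), Fen1 (0.17), Lig1 (0.14), Tyms (-0.026, -0.028), Rrm1 (-0.044, -0.046), Ccne1 (0.12) and E2f1 (0.12, 0.13). With library size alone Mcm10 (0.072) and Ccne1 (0.037) turned, and Mcm10 turned without WT 1 and Mark3-KO 3 together (0.038). Leaving out each library in turn gave -0.17 to 0.041 for Mcm10 (above 0 without Mark3-KO 3), -0.026 to 0.065 for Rfc3 (below 0 without Mark3-KO 1, Mark3-KO 2 or WT 1), -0.018 to 0.088 for Rfc5 (below 0 without Mark3-KO 1 or WT 2) and -0.10 to 0.30 for Rpa1 (below 0 without Mark3-KO 1, Mark3-KO 2 or WT 2). The causes were not tested. What sets the limit of these comparisons, depth or the number of libraries, was not tested.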
